A study of Drosophila melanogaster with 2 samples.

Results

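The genes described here are the Rab GTPase genes of Drosophila melanogaster, taken as every protein-coding gene whose symbol starts with Rab or RabX and a digit in the Ensembl annotation of the dm6 build. The rule found 36 of the 13968 protein-coding genes on the assembled chromosome arms. Of these, 33 encode Rab GTPases, and 3 are regulators that share the name (Rab3-GEF, Rab3GAP1 and Rab3-GAP) and are counted apart. Each gene was asked 1 question: did the tagged protein of tna have a ChIP-seq peak at its promoter in whole embryos?

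Chromatin bound by a tna-eGFP fusion protein was precipitated with an anti-GFP antibody from whole embryos aged 0 to 24 h, of a fly strain carrying an insertion that targets tna. The gene tna (tonalli) encodes a protein with an SP-RING domain of the kind found in SUMO ligases. There were 2 biological replicates, both tna-eGFP, and they form the only group, so no condition is compared and no test across samples was possible. Whole embryos of this age mix all embryonic tissues and stages, the sources used here do not say whether an untagged copy of tna remained, and a control library was not analysed here.

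Rab proteins are small GTPases that sit on the membranes of the secretory and endocytic pathways and switch between a GTP-bound and a GDP-bound state. Exchange factors load them with GTP, GTPase-activating proteins return them to the GDP form, and effectors such as tethers, motors and sorting complexes bind the GTP form and carry out vesicle transport and fusion. Some Rabs serve nearly every cell, while others are known mainly from neurons, and the Drosophila RabX genes are divergent members without clear vertebrate counterparts.

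A gene was called bound when the summit of a listed peak lay within 500 bp of any of its annotated transcription starts. Main results use the conservative list, which holds the 2580 peaks that ranked repeatably in both replicates at an irreproducible discovery rate (IDR) of at most 0.01. Each replicate also has a list of its own, with 2217 peaks in replicate 1 and 2669 in replicate 2, and another list of 3500 peaks was also made from both. The signal of a peak is the peak caller's own value, with a median of 169 over the conservative list. Signals are comparable only within a list, and library depth is unknown.

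The stretches of genome just upstream of the first start show the short strings that were counted, at bound Rab promoters with a DRE (Rab30, Rab7, Rab8 and Rab27) and without one there (Rab21, Rab14 and Rab11), and at promoters without a peak that have it (Rab40 and RabX6) or belong to near-identical copies (Rab9Db and Rab9Fa). Each is given 5′ to 3′ on the strand of the Rab gene, from the RefSeq sequence of dm6, and lies outside every annotated exon. Capitals mark the DRE string TATCGATA, the shorter string CGATA (contained in every DRE) and Motif 1 GGTCACAC, on either strand. The stretches of Rab30, Rab21, Rab14, Rab7, Rab8 and Rab27 span the whole gap between the start of the Rab gene and the start of the gene that runs the other way, and the others are cut at 120 bases.
Rab30 (bound, chr2L:7032607-7032720, minus strand): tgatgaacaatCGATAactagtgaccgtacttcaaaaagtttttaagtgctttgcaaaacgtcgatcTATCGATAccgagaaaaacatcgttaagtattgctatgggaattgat
Rab21 (bound, chrX:23013410-23013494, minus strand): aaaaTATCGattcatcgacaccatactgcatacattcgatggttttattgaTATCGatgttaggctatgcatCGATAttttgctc
Rab14 (bound, chr2L:14355086-14355144, plus strand): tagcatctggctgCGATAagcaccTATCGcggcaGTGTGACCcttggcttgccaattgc
Rab7 (bound, chr3R:23992917-23993007, plus strand): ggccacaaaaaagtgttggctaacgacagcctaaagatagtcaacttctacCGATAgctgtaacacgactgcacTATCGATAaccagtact
Rab8 (bound, chr3L:19871079-19871138, minus strand): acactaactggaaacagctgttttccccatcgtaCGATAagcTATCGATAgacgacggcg
Rab27 (bound, chrX:1476975-1477062, minus strand): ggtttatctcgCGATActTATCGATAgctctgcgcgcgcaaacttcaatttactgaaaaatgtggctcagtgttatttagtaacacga
Rab11 (bound, no gene opposite, chr3R:21111288-21111407, plus strand): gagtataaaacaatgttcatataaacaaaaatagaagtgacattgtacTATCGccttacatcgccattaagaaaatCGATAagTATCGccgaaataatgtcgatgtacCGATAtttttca
Rab40 (no peak, chrX:12463113-12463232, minus strand): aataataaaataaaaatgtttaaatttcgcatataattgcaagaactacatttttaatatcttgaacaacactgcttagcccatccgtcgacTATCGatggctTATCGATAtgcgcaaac
RabX6 (no peak, chr3L:690397-690516, plus strand): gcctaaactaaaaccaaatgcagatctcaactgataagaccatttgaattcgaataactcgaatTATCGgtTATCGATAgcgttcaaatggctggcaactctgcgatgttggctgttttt
Rab9Db (no peak, chrX:10623226-10623345, minus strand): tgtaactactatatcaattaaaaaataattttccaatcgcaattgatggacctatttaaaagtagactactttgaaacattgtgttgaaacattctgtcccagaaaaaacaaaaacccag
Rab9Fa (no peak, chrX:10951031-10951150, minus strand): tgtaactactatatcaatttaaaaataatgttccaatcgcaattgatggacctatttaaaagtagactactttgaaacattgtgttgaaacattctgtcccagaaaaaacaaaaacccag

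Peaks were found at many Rab promoters, and mainly at the Rabs that most cells use. In the conservative list 16 of the 33 Rab GTPases were bound (48.5%), as were 17 of the 36 genes of the symbol rule (47.2%), against 18.2% of all protein-coding genes (2541 of 13968). The broadly used Rabs had the highest count, with 10 of 13 bound (76.9%), followed by 4 of the 7 Rabs that fell in no other list (57.1%). Of the neuronal Rabs 1 of 4 was bound, of the RabX members 1 of 5, and of the 5 Rab9-named copies on the X chromosome none, all counts too small to set against the background share. The neuronal and broad lists rest on general knowledge of the genes and not on expression measured in these embryos, where fewer cells with binding and less binding per cell cannot be told apart.

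The broadly used Rabs had the highest count in the lists of the single replicates too, with 10 of 13 bound in replicate 1 and 9 in replicate 2, and the other Rabs came next with 3 of 7 in each. The small groups had no common order, since replicate 1 held 0 of 4 neuronal Rabs and 1 of 5 RabX members and replicate 2 none of either. In replicate 1, 14 of the 33 Rab GTPases were bound, against 16.4% of all protein-coding genes. In replicate 2, 12 were bound, against 17.7% of all protein-coding genes. The longer list from both replicates gave 17, against 22.2% of all genes, and the Rab that it added was Rab1. Both replicates' own lists held 12 of the 16 conservatively bound Rabs. RabX1 and Rab6 were in the replicate 1 list only, and Rab27 and Rab32 were in neither, although both had ranked peaks in each replicate.

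**Figure D1:**
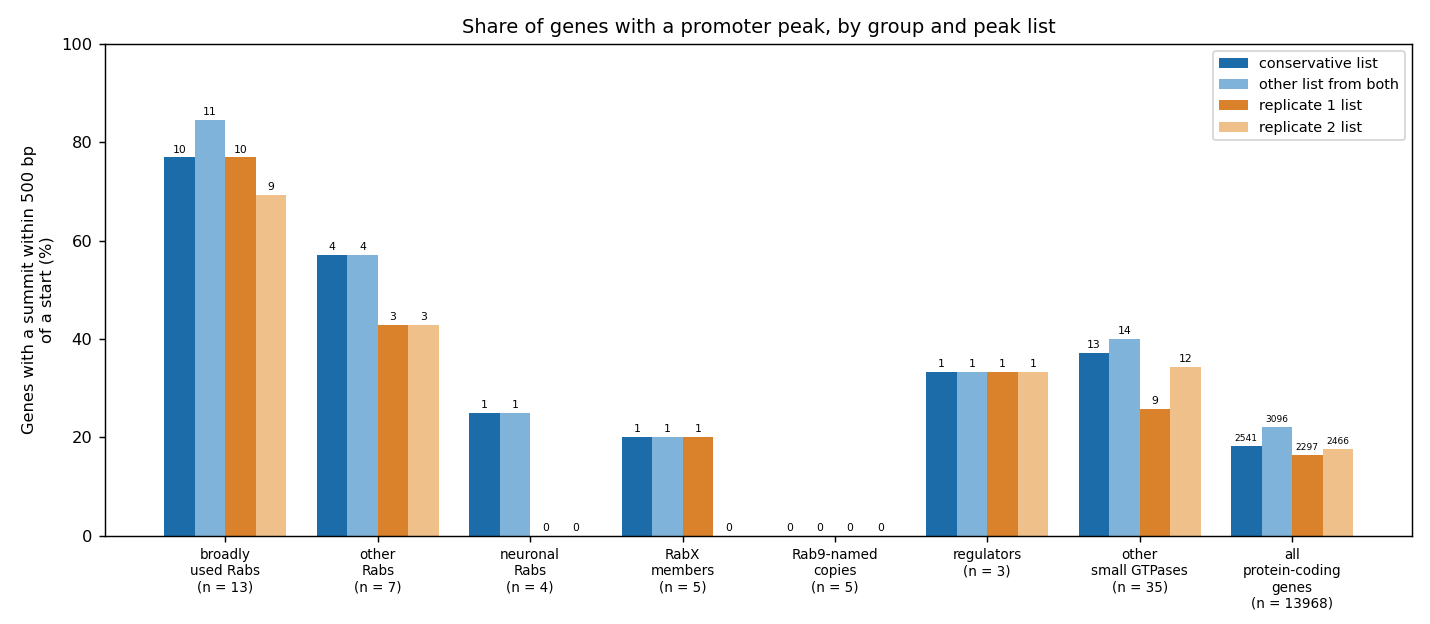
Bars give the percent of genes with a summit within 500 bp of a start, for 6 groups of Rab-named genes, other small GTPases and all protein-coding genes, in each of 4 peak lists, with the number of bound genes above each bar. Broadly used Rabs reached 9 to 11 of 13 genes in the 4 lists, and the Rab9-named copies 0 of 5 in each.

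Among the broadly used Rabs, the strongest peaks lay at Rab21, Rab2 and Rab14. Rab21, which acts at early endosomes, had a conservative signal of 358 (rank 308 of 2580), with 212 in replicate 1 and 139 in replicate 2. Rab2, a Golgi Rab that also serves delivery to lysosomes, had 311 (rank 450), with 147 in replicate 1 and 164 in replicate 2. Rab14, found on endosomes and phagosomes, had 306 (rank 468), with 175 in replicate 1 and 133 in replicate 2. All 3 peaks were in the lists of both replicates, with summits 50, 41 and 0 bp from the start.

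The next 3 peaks of this group were also above the median signal of the list. Rab10, an exocytic Rab known in Drosophila for basement membrane secretion, had a conservative signal of 276, with 196 in replicate 1 (rank 323) and 78.2 in replicate 2 (rank 1776). Rab35, which acts in endocytic recycling, had 245, with 141 in replicate 1 and 112 in replicate 2. Rab7, the Rab of late endosomes and lysosomes, had 235, with 109 in replicate 1 and 120 in replicate 2. Rab10 therefore stood far higher within the replicate 1 list than within that of replicate 2, while Rab7 ranked 963 in replicate 1 and 730 in replicate 2.

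The weakest bound members of the group were Rab11, Rab8, Rab6 and Rab5. Rab11, the Rab of recycling endosomes, had a signal of 184 (rank 1124), with 126 in replicate 1 and 76.2 in replicate 2. Rab8, which directs polarised exocytosis, had 164 (rank 1354), with 78.9 in replicate 1 and 86.9 in replicate 2. Rab6, which serves traffic at the Golgi, had 152 (rank 1507), with 84.6 in replicate 1 and a peak of 58.3 in replicate 2 that did not reach that replicate's own list. Rab5, the master Rab of early endosomes, had the lowest signal of the 16, at 101 (rank 2273). The Rab5 peaks in the replicates' own lists lay at different places, with 56.5 in replicate 1 and 85.3 in replicate 2. The value of 85.3 is therefore not that of the conservative peak.

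Rab1, Rab4 and Rab18 were the broadly used Rabs without a conservative peak at a start. Rab1, which carries cargo from the endoplasmic reticulum to the Golgi, had a signal of 97.4 in the full ranking behind the conservative list, at a −log10 IDR of 0.924 where 2 was required, and was listed in the other list at 23 bp upstream of its start. Rab18, a Rab of lipid droplets and the endoplasmic reticulum, had 81.1 at a −log10 IDR of 1.58, the nearest to the threshold among the Rabs left out. Rab4, which recycles cargo from early endosomes, had 37.1. On the other side of the threshold, the lowest −log10 IDR values of bound Rabs were 2.09 for Rab5, 2.33 for Rab6 and 2.34 for both Rab27 and Rab32.

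Of the Rabs outside these lists, Rab30, Rab19, Rab39 and Rab32 were bound and Rab9, Rab23 and Rab40 were not. Rab30, a Golgi Rab, had the strongest Rab peak of all, with a signal of 516 (rank 132 of 2580), and it was high in both replicates, at 277 (rank 135) in replicate 1 and 245 (rank 126) in replicate 2. Rab19 had 328, with 186 in replicate 1 and 149 in replicate 2. Rab39 had 208, with 140 in replicate 1 and 82.4 in replicate 2. Rab32, which acts in the formation of pigment granules, had 129, with 54.5 in replicate 1 and 68.2 in replicate 2, neither of them in the replicate's own list.

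The 3 members of this group without a listed peak had ranked peaks above most others, which holds for the median gene too. Over all protein-coding genes the best ranked peak stood at a median percentile of 80.8. Rab40, whose vertebrate relatives recruit a ubiquitin ligase through a SOCS box, had a ranked signal of 113 at a −log10 IDR of 1.24, higher in signal than the listed peak of Rab5. Its replicates differed in rank, with 63.9 in replicate 1, above 98.4% of that replicate's ranked peaks, and 38.9 in replicate 2, above 87.8%. Rab23, known in Drosophila for planar cell polarity, had 73.2 at a −log10 IDR of 1.34. Rab9, known for retrieval from late endosomes to the Golgi, had 59.1 at 0.430. Its best peak stood at percentile 81.6 in replicate 1 and 74.3 in replicate 2. The medians over all protein-coding genes were 77.2 in replicate 1 and 81.05 in replicate 2.

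Among neuronal Rabs, only Rab27 reached the conservative list, and it did so weakly. Rab27, a Rab of regulated secretion, had a signal of 119 (rank 2003 of 2580), with 63.5 in replicate 1 and 63.1 in replicate 2, neither in the replicate's own list. Rab3, the Rab of synaptic vesicles, had a ranked signal of 64.3 without reaching a list. Rab26, also known from synaptic vesicles, had 31.8 within 500 bp of its starts, but a listed peak of signal 192 had its summit upstream, at -728 bp from the first of its 3 starts. RabX4, counted both as neuronal and as RabX, had 59.2. In the full rankings the best peak of the neuronal Rabs stood at a median percentile of 88.0 behind the conservative list, against 99.0 for the broadly used Rabs and 80.8 for all protein-coding genes.

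The RabX members split into 1 strongly bound gene and 4 without a peak. RabX1 had a conservative signal of 396 (rank 253), the highest Rab signal after that of Rab30, with 305 in replicate 1 (rank 94 of 2217) and 97.6 in replicate 2, which was not in the replicate 2 list. Its summit lay 167 bp upstream of the RabX1 start and 76 bp from the start of mi, which runs the other way. RabX5 had a ranked signal of 68.6 and RabX6 one of 45.8, while RabX2 had no ranked peak within 500 bp behind the conservative list. The median percentile of the RabX members was 86.5, with the gene without a ranked peak taken as 0.

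The Rab9-named copies (Rab9D, Rab9Db, Rab9E, Rab9Fa and Rab9Fb) lie together on the X chromosome and had no listed peak in any of the 4 lists. Their ranked signals were 13.6, 22.9 and 19.6 for Rab9D, Rab9Db and Rab9E and 35.6 for Rab9Fb, and Rab9Fa had none. Absence of a peak is uncertain here, though less so at Rab9Fb, because reads from repeated sequence may not have been placed. Of all 30-base words within 500 bp of the start, 76.3% in Rab9E, 71.2% in Rab9Fa, 63.1% in Rab9Db and 44.7% in Rab9D occurred more than once in the assembly, and 5.97% in Rab9Fb. RabX2 also held such words, at 33.5%, so its lack of a peak is uncertain as well, and the other 30 genes of the rule held 0. Counts given with the Rab9-named copies left out drop Rab9Fb but keep RabX2. The upstream stretches of Rab9Db and Rab9Fa printed above were the same at 118 of 120 positions. How the authors treated reads with several matches is not given in the sources used here.

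**Figure D2:**
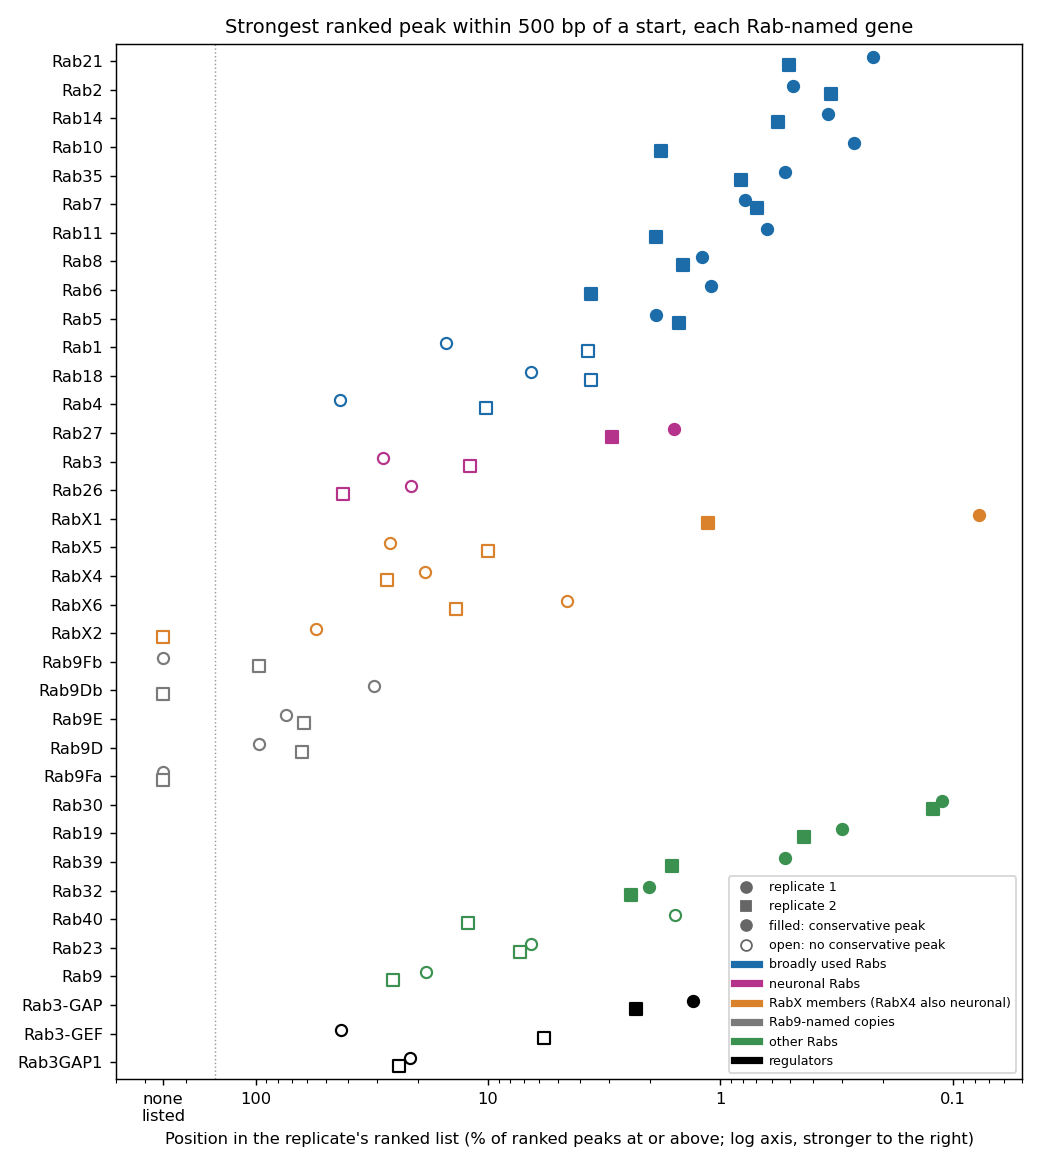
Each row is a Rab-named gene, coloured by group, and each point the strongest ranked peak within 500 bp of a start in replicate 1 (circles) or replicate 2 (squares), placed by the percent of that replicate's ranked peaks at or above it on a log axis with stronger peaks to the right. Filled points are genes with a conservative peak and open points genes without. RabX1 shows the widest gap between replicates among the strongest genes, at rank 97 of 126713 in replicate 1 and rank 1248 of 110091 in replicate 2.

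Peaks at bound Rabs had a somewhat higher median signal than peaks at bound genes in general, which is given as a description without a test. The median conservative signal was 240 over the 16 bound Rab GTPases and 197 over all 2541 bound genes, and their median rank percentile was 71.4 against 60.2. The median distance from summit to the nearest own start was 64.5 bp for the bound Rabs and 58 bp for all bound genes. Rab5, Rab27 and Rab32 had a deposited q-value above 0.05 although they passed the IDR threshold.

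Rab genes with alternative promoters were often bound, mostly at the most upstream start. Of the 9 Rab GTPases with starts more than 100 bp apart, 7 were bound, against 26.7% of all protein-coding genes of that kind. Of the 24 with 1 start, 9 were bound, against 15.6% of all protein-coding genes with 1 start or several with no gap above 100 bp. With each peak given to its nearest start alone, 3 of these 24 and 6 of the 9 with several starts remained. The share of all protein-coding genes was then 13.8%. More starts also give a gene more chances of a nearby summit, so the shares of the 2 kinds are not comparable with each other.

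At Rab14 and Rab8 the peak marked the first start and left the inner promoters without one. The Rab14 summit lay on the first start itself, in its 5′ UTR, and the other starts lay 1896 and 2136 bp further in. The Rab8 summit lay 27 bp upstream of the first start, and the other start 1520 bp further in. Rab32 was alike, with its summit 101 bp inside the first of 5 starts and the others 4843 to 6996 bp further in. The inner starts of Rab14, Rab8 and Rab32 had no listed summit within 500 bp in the conservative list. Those of Rab14 and Rab8 had none in either replicate's own list. Rab32 had no summit at any start in those lists, the first included, so they cannot tell its starts apart.

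Where starts were close together, the summit lay near several of them. The Rab21 summit lay 50 bp upstream of the first start, with the others 145 and 193 bp further in. The Rab7 summit lay 20 bp upstream of the first start, with the others 171 and 725 bp further in. Both replicates also listed a weaker peak near the start at 171 bp. It had a signal of 4.67, 18 bp from that start, in replicate 1 and of 54.0, 6 bp from it, in replicate 2. The value of 4.67 is near the lowest of the replicate 1 list (2.12, with a median of 98.6). The conservative list held only 1 peak at the Rab7 starts. The Rab19 starts lie 151 bp apart, and its summit fell between them, 95 bp inside the first and 56 bp before the other.

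Rab5 was the exception, since its peak lay inside the gene and away from its first start. Of its 6 starts, the conservative summit lay 356 bp inside the third, in a 5′ UTR. The summit in the replicate 1 list lay 313 bp inside that start. The replicate 2 list held a different peak, with its summit 450 bp inside the fourth start and 273 bp before the fifth. The first Rab5 start, 72 bp from that of the divergent gene Axud1, had no peak within 500 bp. Among the several-start genes without a peak, Rab40 had its nearest conservative summit far upstream, at -34068 bp from its first start. Away from starts, the only conservative peak in the body of a Rab gene lay in a coding exon of Rab30, with a signal of 120 and 748 bp from the start.

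Most bound Rab promoters were shared with a neighbour that runs in the opposite direction. Of the 15 Rab GTPases with another protein-coding start within 500 bp, 12 were bound, against 32.2% of all protein-coding genes with such a neighbour, and Rab5 is among the 12 with a peak away from the shared promoter. Of the 18 without, 4 were bound (Rab11, Rab19, Rab32 and Rab35), against 11.9% of such genes overall. All 15 neighbours ran divergently. Put the other way, 75% of bound Rabs and 17.6% of Rabs without a peak had such a neighbour, against 54.7% of all bound genes and 30.8% of all genes. With the Rab9-named copies left out, 3 of the 12 Rabs without a peak had one.

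The groups of Rabs differed in this feature, whose part in the counts was not tested. All 8 broadly used Rabs with a neighbour were bound (Rab2, Rab5, Rab6, Rab7, Rab8, Rab10, Rab14 and Rab21), and of the 5 without, only Rab11 and Rab35 were. Of the neuronal Rabs, Rab27 alone had a neighbour, mei-38, with starts 89 bp apart. Of the RabX members, RabX1 and RabX6 had one, and no Rab9-named copy did. The 3 Rabs with a neighbour but no peak had the widest gaps, 421 bp for Rab23 and plx, 416 bp for Rab40 and CG42258 and 436 bp for RabX6 and CG32483. Gaps at bound Rabs ran between 60 bp for Rab14 and l(2)34Fd and 301 bp for Rab6 and Phae1.

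A peak at such a promoter cannot be assigned to 1 of the genes. In 7 cases the summit was nearer to the neighbour's start, namely Rab30 (Caper), RabX1 (mi), Rab21 (Coa7), Rab2 (Mob4), Rab10 (CG17068), Rab39 (Pdp) and Rab27 (mei-38). The Rab30 summit lay 68 bp from the Rab30 start and 47 bp from that of Caper. The Rab39 summit lay 312 bp from the Rab39 start, inside the 5′ UTR of Pdp and 40 bp from its start. With each peak given only to the nearest start, 9 of the 33 Rab GTPases remained, against 13.8% of all protein-coding genes. The promoters of Rab7 (Epp) and Rab8 (Usp32), with gaps of 92 and 61 bp, had conservative summits nearer to the Rab gene. In replicate 2, however, the Rab8 summit lay 31 bp from Rab8 and 30 bp from Usp32. The conservative Rab2 summit lay 41 bp from Rab2 and 37 bp from Mob4. Summits can move between replicates, as at Rab11, where they lay at -77 and 1 bp from the start. Where the distances to both starts are close, the nearer gene, and with it the count of 9, is uncertain.

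**Figure D3:**
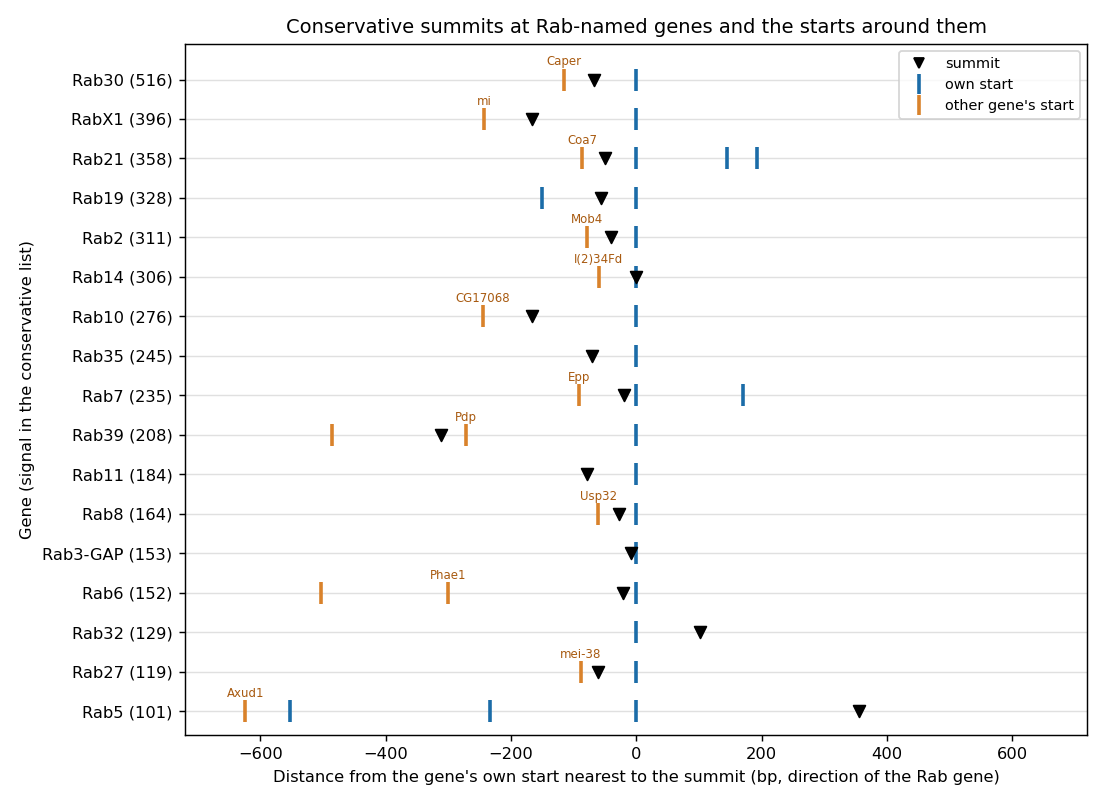
Rows are the 17 Rab-named genes with a conservative peak, in order of signal (in brackets), and the axis gives the distance in bp from the own start nearest to the summit, in the direction of the Rab gene. Triangles are summits, blue ticks own starts and orange ticks starts of other protein-coding genes up to 700 bp away. Most summits lie between the Rab start and a divergent start, and that of Rab5 lies 356 bp inside its nearest own start.

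Bound Rab promoters carried the DRE string more often than Rab promoters without a peak. The DRE (DNA replication-related element) is a core promoter sequence of many broadly expressed Drosophila genes and the binding sequence of the factor DREF. TATCGATA occurred on either strand within 100 bp of a start at 9 of the 16 bound Rabs (Rab2, Rab6, Rab7, Rab8, Rab14, Rab19, Rab27, Rab30 and Rab35), against 2 of the 17 without a peak (Rab40 and RabX6). With the Rab9-named copies left out, it occurred at 2 of the 12 Rabs without a peak. The shares over all genes were 29.0% of bound genes, 3.91% of genes without a peak and 8.48% of all protein-coding genes. As genes with several starts offer more sequence, each such share depends on the number of starts as well.

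The shorter string CGATA was present at every bound Rab. It occurred within 100 bp of a start at 16 of 16 bound Rabs and at 5 of 17 without a peak (Rab4, Rab18, Rab26, Rab40 and RabX6). With the Rab9-named copies left out, it occurred at 5 of the 12 Rabs without a peak. Over all genes it occurred at 81.0% of bound genes, 36.6% of genes without a peak and 44.7% of all. Around the summit itself, within 100 bp, CGATA was found at 13 of the 16 bound Rabs and the DRE at 9, against 80.8% and 31.1% of all bound genes. The CGATA share around summits is thus near that of all bound genes.

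In the sequences above, the DRE began at position -17 from the first start in Rab7, -18 in Rab8, -47 in Rab30 and -70 in Rab27, close to the summit in each. Its centre lay 6.5 bp from the summit at Rab7, 12.5 bp at Rab8, 24.5 bp at Rab30 and 5.5 bp at Rab27. Among the other bound Rabs with a DRE it lay 7.5 bp away at Rab2, 12.5 bp at Rab19 and 27.5 bp at Rab6. It was further off at Rab14, at 77.5 bp, and at Rab35, with copies at 61.5 and 96.5 bp. All these distances are from the conservative summit and do not locate binding to the base. The summits of replicates 1 and 2 lay at -42 and -81 bp from the start at Rab2 and at -64 and -22 bp at Rab6. They differed less at Rab7 (-24 bp in both) and Rab8 (-26 and -31 bp). Rab21 and Rab11 had no DRE there but 3 and 4 copies of CGATA upstream of the first start. Rab40 and RabX6 carried a DRE at -17 and -49 without a listed peak, and both had a ranked peak in replicate 1 within 4 bp of the start, of signal 63.9 at Rab40 and 40.5 at RabX6. A match is a description of the sequence, and binding of DREF was not measured here.

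The other strings searched were less common at bound Rabs than CGATA and the DRE. Motif 1 (GGTCACAC) occurred at 3 of 16 bound Rabs (Rab5, Rab6 and Rab14) and at 2 of 17 without a peak, against 9.80% of all bound genes and 7.05% of genes without a peak. The TATA box TATAAA occurred at 4 of 16 bound Rabs and at 0 of 17 without a peak. Over all genes it was found at 28.9% of bound genes and 35.2% of those without. Its contrast at Rabs depended on the window, with 6 of 16 and 4 of 17 within 200 bp of a start. Within 100 bp again, GAGAG occurred at 5 of 16 and 1 of 17, while its shares over all genes were 28.6% both with and without a peak. The Initiator string TCAGTT was present at 4 of 16 bound Rabs and at 6 of 17 without, against 24.1% and 27.6% over all genes, and the Pho string GCCAT at 6 of each, against 41.0% and 37.7%. The E-box CAGCTG was found at 6 of 16 and 3 of 17, against 23.8% and 15.99% over all genes. The E-box CACGTG was found at 1 of 16 and 0 of 17, against 5.35% and 3.31%, and the Zelda string CAGGTA at no Rab, against 6.61% and 5.58%. Median GC content within 100 bp of the starts was 39.8% at bound Rabs and 40.8% at Rabs without a peak, beside 41.3% at all bound genes.

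**Figure D4:**
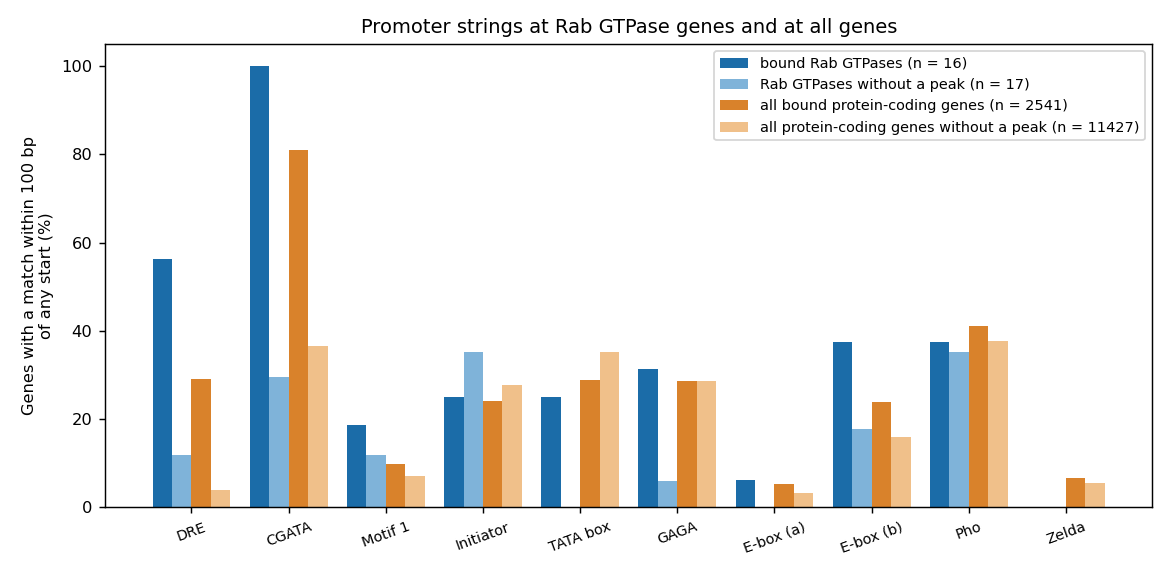
Bars give the percent of genes with at least 1 match on either strand within 100 bp of any start for 10 short strings (E-box a is CACGTG, E-box b CAGCTG), at Rab GTPases with and without a conservative peak and at all protein-coding genes with and without one. The DRE was found at 56.3% of bound Rabs and 11.8% of Rabs without a peak, and CGATA at 100% and 29.4%.

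Median gene length was 3222.5 bp for the bound Rabs, between 1270 and 8479 bp, and 1435 bp for the 17 without a peak, between 791 and 16254 bp. The short Rab9-named copies make up much of that gap, since the median of the other 12 Rabs without a peak was 2388.5 bp. The medians were 3239 bp over all bound genes and 2164.5 bp over all protein-coding genes. The copies are 871 to 897 bp long. By arm, 5 of the 13 Rab GTPases on X were bound, where 5 of the 13 are these copies, against 21.4% of all protein-coding genes on X. On 2L 4 of 5 were bound, on 2R 3 of 5, and on 3L and 3R 2 of 5 each, against 17.4%, 18.8%, 16.1% and 18.3% of all genes on 2L, 2R, 3L and 3R.

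The machinery that acts on Rabs was bound at a share near that of the Rabs themselves. Of 86 genes of the Rab pathway found in the annotation, 37 were bound (43.0%), again against 18.2% of all protein-coding genes. By role these were 23 of 49 effectors and tethers, 10 of 21 exchange factors, 4 of 12 GTPase-activating proteins and 0 of 4 genes of prenylation and Rab recycling. The strongest were Vps16A, a core subunit of the HOPS and CORVET tethers that act with Rab7 and Rab5, with 706 (377 in replicate 1 and 332 in replicate 2), and Vps29, a subunit of the retromer, with 525. Next came the golgin Gmap with 494 and CG7564, which the annotation's synonyms pair with the exchange factor Alsin2, with 343.

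The regulators named after Rab3 differed among themselves. Rab3-GAP, the non-catalytic partner in the complex that turns off Rab3, had a signal of 153, with 73.0 in replicate 1 and 69.6 in replicate 2, and its summit lay 9 bp from the start. Rab3GAP1, the catalytic subunit of that complex, had no listed peak, with a ranked signal of 54.0. Rab3-GEF, the exchange factor for Rab3, had none either, with 65.7. Of 35 small GTPases outside the Rab family, 13 were bound (37.1%, against 18.2% of all protein-coding genes), among them Arl2 with 361, whose summit was nearer to COX7A, and Rap1 and Miro with 243 each.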

How the data were processed

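The authors deposited peak lists on dm6 from tna-eGFP embryos, 2 biological replicates, with 1 thresholded and 1 ranked list from each replicate and 2 of each kind from both, per the file notes. The sources used here name neither the aligner nor the peak caller. Each peak has a deposited signal, a value of the caller's own, and no scaling that would join the lists is stated. Thresholded lists also carry the deposited −log10 q-value, and ranked lists that of the global IDR. The lists hold no read counts, so depth is unknown and no interval was computed.

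Starts came from the Ensembl annotation of release 115 in dm6 coordinates, with transposable elements and pseudogenes left out, and sequence from RefSeq's dm6 assembly. A summit is the deposited peak start plus the summit offset. Genes were matched in Python 3.11.15 with pandas 2.3.3, numpy 2.4.6 and biopython 1.88, and the matching was tested on simulated peaks. The best ranked peak of a gene without one counted as percentile 0. Repeated words were counted on both strands over the whole assembly, and identity position by position without gaps.

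Genes and lists were chosen with earlier results of these data known, so shares are descriptions without tests. All genes of the symbol rule are named, with up to 4 of the strongest bound genes of each other list and any gene whose start was nearer to a summit. Symbols that the annotation and its synonyms do not hold were left out. 1 gene that this rule would name is not reported here. Alternatives covered the other lists, start windows of 250 and 1000 bp, the nearest start only, stricter IDR and q-value limits, 1 peak per replicate pair, peak intervals over a start, and string windows of 50 and 200 bp.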

Additional observations from a re-analysis of the deposited data

How the results depend on the processing

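Most counts moved by less than 1.5 times under the alternatives run. Requiring an IDR of at most 0.001 left 10 of 36 genes of the symbol rule, 10 Rab GTPases, 6 broadly used Rabs, 0 neuronal Rabs, 20 pathway genes and 5 other small GTPases bound, while the share of all protein-coding genes fell to 9.23%, so part of each loss is that of the shorter list. It removed Rab5, Rab6, Rab8, Rab11, Rab27 and Rab32. Assigning each peak to its nearest start only left 10 genes of the rule, 9 Rab GTPases, 2 of the Rabs outside the named lists, 0 neuronal Rabs and 0 RabX members. The neuronal count was 0 in either replicate alone and with a q-value of at most 0.05, and 2 with a start window of 1000 bp, which took in Rab26. With 1 replicate left out, the RabX count ranged from 0 to 1, being 0 without replicate 1, and it was 0 where the peak interval had to cover a start. Rab27, Rab32, Rab6 and RabX1 were not in the list of replicate 2, and Rab27 and Rab32 not in that of replicate 1. A window of 250 bp removed Rab39 and Rab5. The median rank percentile of bound Rabs was 78.0 in the other list from both replicates. Keeping 1 peak per replicate pair changed no Rab call. Leaving out the Rab9-named copies, chosen after seeing the data, gave 16 of 28 Rab GTPases bound. No paired analysis was possible because there is only 1 group. Unknown depth, 2 replicates and groups of 3 to 13 Rab-named genes limit what these counts can show.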
